A study of Arabidopsis thaliana with 12 samples.

Results

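The JAZ genes encode the repressors of the jasmonate response, and 10 of them were followed here in whole roots of Arabidopsis thaliana. They were JAZ1 (AT1G19180), JAZ2 (AT1G74950), JAZ3 (AT3G17860), JAZ5 (AT1G17380), JAZ6 (AT1G72450), JAZ7 (AT2G34600), JAZ8 (AT1G30135), JAZ9 (AT1G70700), JAZ10 (AT5G13220) and JAZ12 (AT5G20900). They were taken by these locus identifiers from a table of 21200 genes, all 10 were in it, and all 10 were among the 18867 genes that passed the filter on low counts. Columbia wild-type seedlings on nutrient agar were inoculated 4 days after planting and their roots were harvested 24 h or 7 d later. The groups were roots given Azospirillum brasilense Az39, a soil bacterium that associates with plant roots, roots given the ipdc mutant of Az39, and roots given saline, each at both times. The bacterial ipdc gene codes for indole-3-pyruvate decarboxylase, through which the bacterium makes auxin. Inoculum was 2 uL of washed bacteria at an OD595 of 1 in 0.9% saline, and control roots received 2 uL of 0.9% saline. Each of the 6 groups had 2 libraries, labelled as biological replicates, and each library was a pool of at least 50 root systems, so the values are averages over many plants and over every cell type of the root. In such whole-root RNA, fewer cells of a type and less RNA per cell cannot be told apart.

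Jasmonate signalling works by removing repressors. In its resting state a JAZ protein binds MYC2 and related transcription factors and, through the adaptor NINJA or directly, brings in TOPLESS co-repressors. The active hormone, jasmonoyl-isoleucine, joins the JAZ protein to the F-box receptor COI1, and the JAZ protein is then ubiquitinated and degraded. The freed MYC factors bind G-box sequences and switch on jasmonate response genes, and these include most JAZ genes themselves, so that JAZ transcripts rise when the pathway is active and the new protein restores repression. In roots the pathway is known for limiting growth and for responses to wounding and microbes. Transcripts were measured here, not JAZ protein, which the same pathway degrades.

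Total counts were 9665704 to 21541793 reads per library. All 8 root marker genes had counts in every library, and together they took between 0.552% and 1.25% of counts. Spearman's rho between the replicates of a group, over genes, was 0.969 to 0.984 in 5 groups and 0.932 in ipdc roots at 24 h. Those ipdc 24 h libraries stood apart: 8 seed storage genes made up 4.702% of counts in replicate 1 and 0.264% in replicate 2, against 0.00132% to 0.113% in the other 10 libraries. A list of 8 photosynthesis genes took 0.200% and 1.06% of counts in them, against 0.0369% to 0.158% elsewhere. The values named in comparisons with the ipdc 24 h group are therefore also given without each of its libraries.

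The promoters of the 10 genes differ in a motif of the pathway. The 250 bases upstream of each annotated gene start (RefSeq, TAIR10.1) were searched for the G-box CACGTG, which MYC2 is known to bind and which reads the same on both strands, and for its variant AACGTG, read as CACGTT on the other strand. No 2 matches overlapped. The G-box stood in the windows of 4 of the 10 genes, against 6.49% of 27443 protein-coding gene windows of the same length. It began 66 bases before the start of JAZ2, 140 and 82 bases before JAZ3, 34 bases before JAZ7 and 10 bases before JAZ8. The variant stood in JAZ3, JAZ5, JAZ6 and JAZ12, against 7.54% of all windows, and 7 of the 10 genes held either motif, against 13.3%. JAZ1, JAZ9 and JAZ10 held neither in these windows. A match is only a run of letters, and its absence from 250 bases says nothing about binding farther out.

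The windows are shown for 6 genes, because these span the range of responses described below: JAZ2, JAZ7 and JAZ8 with a G-box, JAZ9 and JAZ10 with no match, and JAZ12, whose transcript level moved least. They lie at chr1:28150447-28150696 (JAZ2, minus strand), chr2:14572780-14573029 (JAZ7, plus strand), chr1:10596102-10596351 (JAZ8, plus strand), chr1:26654279-26654528 (JAZ9, plus strand), chr5:4218536-4218785 (JAZ10, plus strand) and chr5:7090454-7090703 (JAZ12, plus strand). Each is written 5′ to 3′ on the gene's own strand, ends at the base before the gene start, and carries the matched motifs in capitals.
JAZ2: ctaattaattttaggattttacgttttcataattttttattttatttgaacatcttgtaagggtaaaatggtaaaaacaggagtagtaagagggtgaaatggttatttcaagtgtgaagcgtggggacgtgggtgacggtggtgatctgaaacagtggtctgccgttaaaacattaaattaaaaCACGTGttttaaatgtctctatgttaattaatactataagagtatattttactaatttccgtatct
JAZ7: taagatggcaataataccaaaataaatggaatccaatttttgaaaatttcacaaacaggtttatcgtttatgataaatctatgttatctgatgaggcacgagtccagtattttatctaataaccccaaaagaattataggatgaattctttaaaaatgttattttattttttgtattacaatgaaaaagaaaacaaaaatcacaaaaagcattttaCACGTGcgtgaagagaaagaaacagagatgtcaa
JAZ8: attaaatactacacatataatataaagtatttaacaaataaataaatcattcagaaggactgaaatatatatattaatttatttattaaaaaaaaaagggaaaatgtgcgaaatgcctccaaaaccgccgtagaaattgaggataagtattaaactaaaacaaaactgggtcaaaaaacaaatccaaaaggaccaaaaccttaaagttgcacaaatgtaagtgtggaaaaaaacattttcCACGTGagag
JAZ9: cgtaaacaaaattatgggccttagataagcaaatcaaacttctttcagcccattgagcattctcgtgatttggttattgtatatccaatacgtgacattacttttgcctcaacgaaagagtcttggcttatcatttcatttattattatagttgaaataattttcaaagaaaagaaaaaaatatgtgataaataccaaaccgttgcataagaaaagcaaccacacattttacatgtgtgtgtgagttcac
JAZ10: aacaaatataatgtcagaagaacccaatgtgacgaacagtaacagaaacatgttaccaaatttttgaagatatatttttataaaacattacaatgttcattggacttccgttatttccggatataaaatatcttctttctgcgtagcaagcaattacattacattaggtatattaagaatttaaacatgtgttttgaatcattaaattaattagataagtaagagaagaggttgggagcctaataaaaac
JAZ12: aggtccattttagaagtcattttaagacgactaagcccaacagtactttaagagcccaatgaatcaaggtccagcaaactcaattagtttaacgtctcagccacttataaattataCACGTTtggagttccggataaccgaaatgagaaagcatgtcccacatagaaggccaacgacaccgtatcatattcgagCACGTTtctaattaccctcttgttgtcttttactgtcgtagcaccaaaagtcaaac

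Summed over the 10 genes, JAZ transcripts were scarce at 24 h and abundant at 7 d, above all in inoculated roots. Levels are given as CPM, each gene's count relative to its library's total after scaling by the trimmed mean of M values (TMM). At 24 h the sum was 289 and 185 CPM in Az39 roots, 253 and 348 CPM in ipdc roots, and 264 and 194 CPM in saline roots, and the 3 ranges overlapped. At 7 d it was 2198 and 3883 CPM in Az39 roots, 2393 and 1646 CPM in ipdc roots, and 953 and 424 CPM in saline roots. All 4 inoculated libraries at 7 d lay above both saline libraries, and the ranges of Az39 and ipdc roots overlapped. The saline libraries at 7 d were themselves far apart, replicate 1 having the higher sum, and that spread enters each comparison with saline at 7 d. As a share of all counts, the 10 genes made up 0.217% and 0.373% in Az39 roots, 0.240% and 0.170% in ipdc roots, and 0.0983% and 0.0446% in saline roots at 7 d.

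**Figure D1:**
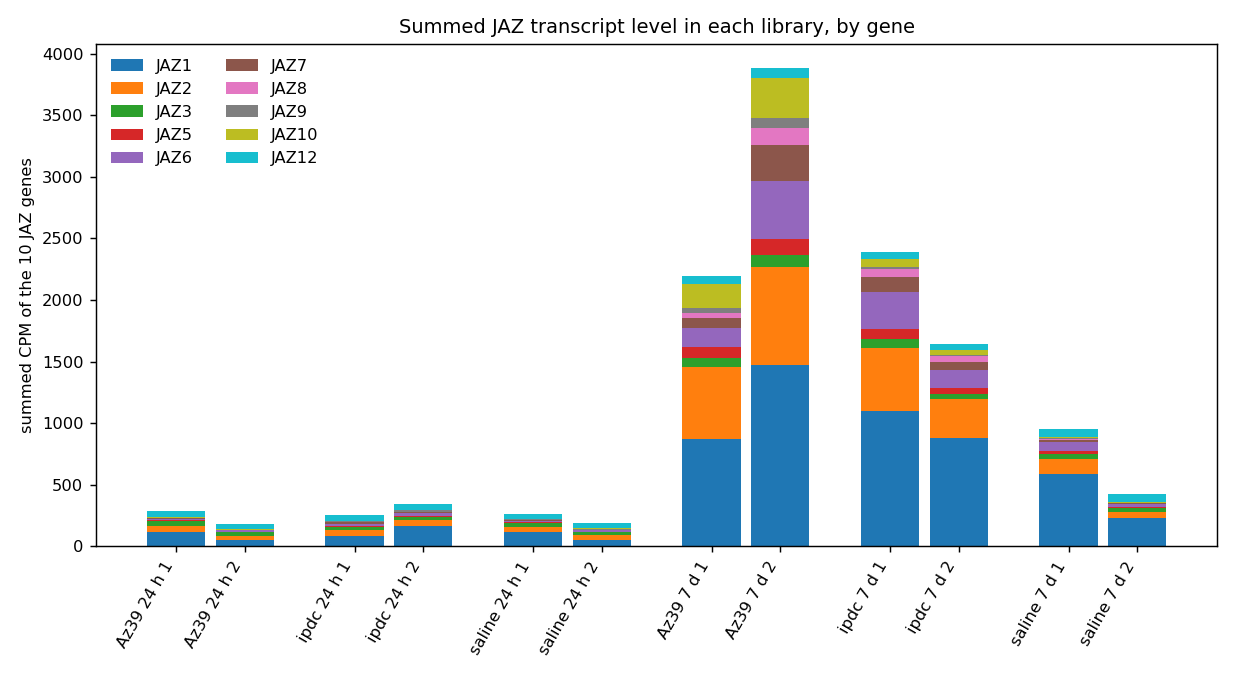
Summed level of the 10 JAZ genes in each of the 12 libraries, in TMM-scaled CPM on a linear axis from 0, with each gene as a coloured segment. The Az39 libraries at 7 d reach 2198 and 3883 CPM, the ipdc libraries 2393 and 1646 CPM and the saline libraries 953 and 424 CPM, while no 24 h library exceeds 348 CPM.

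At 7 d, Az39 roots held more transcript of every one of the 10 JAZ genes than saline roots did, both Az39 libraries lying above both saline libraries, and 7 of the 10 passed the test. The genes that rose were JAZ2, JAZ3, JAZ6, JAZ7, JAZ8, JAZ9 and JAZ10. A gene passed at a Benjamini-Hochberg adjusted p under 0.05 over all genes in edgeR's quasi-likelihood F test, and 2.35% of the 18867 genes tested passed as higher in this comparison. Non-overlap in that direction alone was common, at 30.7% of all genes. The median log2 fold change was 2.86 over the 10 JAZ genes and 0.05 over all genes tested.

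JAZ10, a repressor whose loss makes roots more sensitive to jasmonate, had the largest fold change of the 10. Its level was 193 and 326 CPM in Az39 roots, against 6.97 and 1.92 CPM in saline roots. The log2 fold change was 5.87 ± 0.64 (standard error, SE, n = 2 libraries per group here and throughout; adjusted p = 0.0054), a fold of 58.5. JAZ10 overlaps the locus AT5G02045 on the opposite strand by 71 bases, and because the library kit does not mark strand, reads from that stretch could belong to either.

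JAZ1 and JAZ2 are close relatives. JAZ2 rose to 584 and 792 CPM in Az39 roots, against 122 and 43.5 CPM in saline roots, a log2 fold change of 3.06 ± 0.44 (adjusted p = 0.012). JAZ1, whose protein was used to work out how the receptor holds the hormone, measured 872 and 1476 CPM in Az39 roots and 586 and 233 CPM in saline roots. The libraries did not overlap, but the log2 fold change of 1.52 ± 0.57 did not pass (adjusted p = 0.15).

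JAZ3 and JAZ9 belong to another branch of the family, and both rose. JAZ9 stood at 40.9 and 83.6 CPM in Az39 roots, against 5.73 and 5.21 CPM in saline roots, and its log2 fold change was 3.51 ± 0.41 (adjusted p = 0.0065). JAZ3 stood at 74.5 and 95.3 CPM in Az39 roots, against 38.6 and 34.5 CPM in saline roots, and its log2 fold change was 1.22 ± 0.26 (adjusted p = 0.037). Both had saline replicates close together, unlike the other members that rose.

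JAZ5 and JAZ6 form another related pair, with motifs for direct contact with TOPLESS. JAZ6 measured 154 and 470 CPM in Az39 roots, against 71.2 and 27.5 CPM in saline roots, and rose by a log2 fold change of 2.66 ± 0.58 (adjusted p = 0.040). JAZ5 measured 91.1 and 131 CPM in Az39 roots and 30.2 and 7.13 CPM in saline roots. Its log2 fold change of 2.57 ± 0.62 was close to that of JAZ6 and fell just short of the threshold (adjusted p = 0.052).

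JAZ7 and JAZ8 encode small proteins that bind co-repressors directly and lack the usual degradation signal. Their libraries were the most uneven of the 10 within Az39 roots. JAZ8 had 41.5 and 135 CPM in Az39 roots, against 6.77 and 1.13 CPM in saline roots, a log2 fold change of 4.48 ± 0.77 (adjusted p = 0.020). JAZ7 had 78.1 and 294 CPM in Az39 roots, against 17.4 and 3.20 CPM in saline roots, a log2 fold change of 4.18 ± 0.84 (adjusted p = 0.032). In both genes the lower Az39 library still exceeded the higher saline library.

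JAZ12, whose protein is also a target of the ubiquitin ligase KEG, was the member that moved least. It measured 68.7 and 81.3 CPM in Az39 roots and 67.6 and 66.7 CPM in saline roots, a log2 fold change of 0.16 ± 0.16 (95% interval −0.20 to 0.52, adjusted p = 0.58). It overlaps AT5G03235 by 211 bases and AT5G20910 by 28 bases on the opposite strand, so its counts may include reads of those loci.

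The number that passed depended on single libraries, among all genes as well as among the members. Both counts were lowest without saline replicate 2 at 7 d. Without saline replicate 2 at 7 d, 1 member passed (JAZ10), and without Az39 replicate 2 at 7 d, 4 passed (JAZ2, JAZ8, JAZ9 and JAZ10), while leaving out any of the other 10 libraries gave 5 to 8. JAZ10 passed in all 12 of these fits, with log2 fold changes of 5.22 to 7.07, and JAZ2, JAZ8 and JAZ9 each passed in 11. JAZ3 and JAZ7 passed in some of these fits and JAZ6 in fewer. JAZ5, which fell short with all 12 libraries, passed in as many fits as JAZ6. In a fit to the 6 libraries of 7 d alone, 783 genes passed and 5 of them were members, without JAZ6 (adjusted p = 0.075) and JAZ7 (adjusted p = 0.057). JAZ7 ranged from 2.93 to 5.86 and JAZ8 from 3.39 to 6.27, both lowest without Az39 replicate 2 and highest without saline replicate 1. JAZ6 ranged from 1.64 to 3.50 between the same 2 fits. The summed level of the 8 root markers was also lower with Az39 at 7 d (5599 and 9532 CPM) than with saline (10874 and 11841 CPM), 7 of the 8 having a fold change below 0 and 1, WOL, passing as lower. None of the 8 was at 0 in any library, and their part in the JAZ result was not tested.

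**Figure D2:**
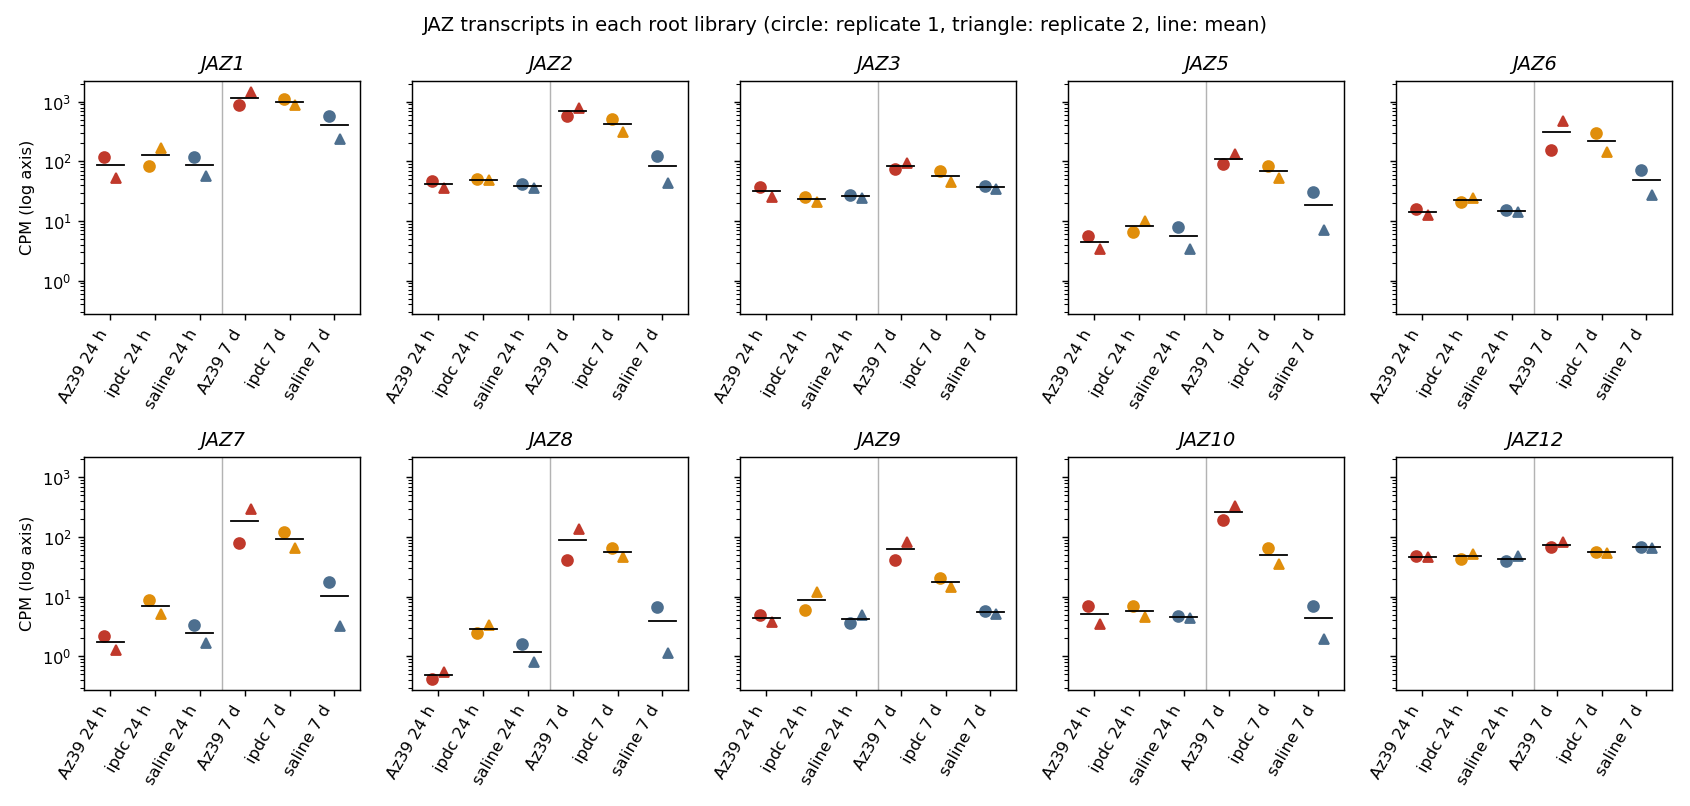
Level of each of the 10 JAZ genes in every library, in TMM-scaled CPM on a log axis, by group, with replicate 1 as a circle, replicate 2 as a triangle and the group mean as a line. At 7 d JAZ10 stands at 193 and 326 CPM in Az39 roots, 65.3 and 36.0 CPM in ipdc roots and 6.97 and 1.92 CPM in saline roots, while JAZ12 stays between 39.6 and 81.3 CPM in all 12 libraries.

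Roots given the ipdc mutant also held more JAZ transcript than saline roots at 7 d, but no member passed edgeR's test. In 9 of the 10 genes both ipdc libraries lay above both saline libraries, which held for 28.6% of all genes tested. JAZ12 was the exception, with 56.9 and 53.5 CPM in ipdc roots, below the 67.6 and 66.7 CPM of saline roots, an order seen in 23.7% of genes. The median log2 fold change of the 10 was 2.01, against 0.04 over all genes. Of all genes tested, 0.0159% (3 genes) passed in this comparison, and 8 of the 10 JAZ genes had an unadjusted p under 0.05, as did 10.5% of all genes.

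The largest ipdc fold changes belonged to JAZ8, JAZ10 and JAZ7. JAZ8 measured 64.7 and 46.7 CPM in ipdc roots against 6.77 and 1.13 CPM in saline roots, a log2 fold change of 3.82 ± 0.75 (adjusted p = 0.15). JAZ10 measured 65.3 and 36.0 CPM in ipdc roots against 6.97 and 1.92 CPM in saline roots, a log2 fold change of 3.51 ± 0.58 (adjusted p = 0.14). JAZ7 measured 123 and 65.2 CPM in ipdc roots against 17.4 and 3.20 CPM in saline roots, a log2 fold change of 3.20 ± 0.81 (adjusted p = 0.21).

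The other members with a positive fold change were JAZ2 (519 and 316 CPM in ipdc roots; log2 fold change 2.34), JAZ6 (295 and 142 CPM; 2.15), JAZ5 (84.4 and 51.9 CPM; 1.87), JAZ9 (20.4 and 14.6 CPM; 1.68), JAZ1 (1095 and 876 CPM; 1.27) and JAZ3 (68.6 and 44.4 CPM; 0.63). Their adjusted p ran from 0.15 to 0.48. The outcome depended on the tool: DESeq2 called 7 members higher on the same counts (JAZ2, JAZ5, JAZ6, JAZ7, JAZ8, JAZ9 and JAZ10), with adjusted p from 2.53e-08 for JAZ10 to 0.047 for JAZ5, where it called 1.97% of all genes to which it gave an adjusted p. Without saline replicate 1 at 7 d, edgeR called JAZ2 alone, with a log2 fold change of 3.26 (adjusted p = 0.035). For Az39 versus saline at 7 d, DESeq2 called 8 of the 10 members higher, and 10.4% of all genes in either direction. Both strain comparisons at 7 d use the same 2 saline libraries, so the values of the 2 comparisons are not independent.

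**Figure D3:**
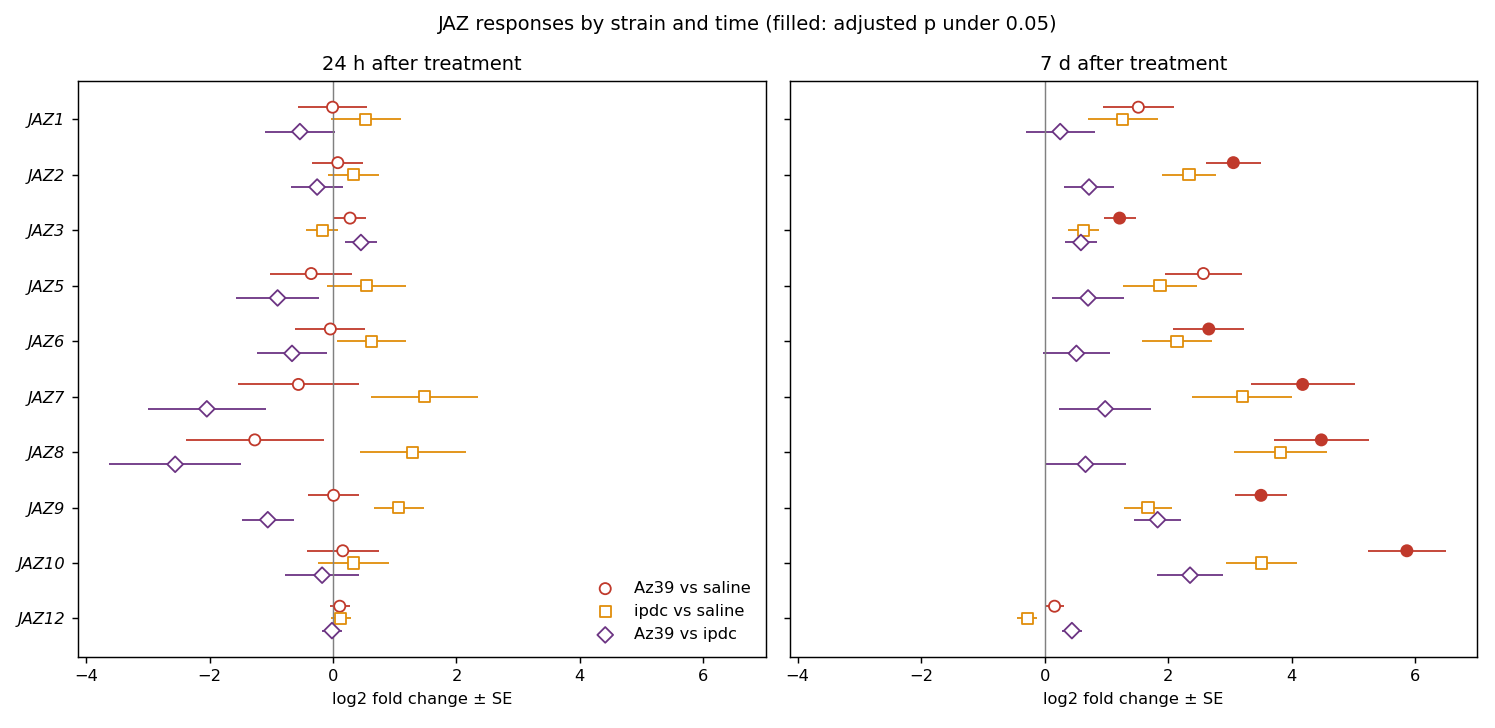
Log2 fold change and SE of each JAZ gene in Az39 versus saline, ipdc versus saline and Az39 versus ipdc roots, at 24 h and at 7 d, with filled symbols where the adjusted p was under 0.05. Filled symbols occur only for Az39 versus saline at 7 d, in 7 of the 10 genes, with JAZ10 farthest to the right at 5.87.

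The direct comparison of the strains at 7 d put Az39 above ipdc in mean level for all 10 genes, without a call. JAZ10 and JAZ9 differed most. JAZ10 had 193 and 326 CPM in Az39 roots and 65.3 and 36.0 CPM in ipdc roots, a log2 difference of 2.36 ± 0.53 (95% interval 1.16 to 3.55, adjusted p = 0.25). JAZ9 had 40.9 and 83.6 CPM in Az39 roots and 20.4 and 14.6 CPM in ipdc roots, a log2 difference of 1.83 ± 0.38 (95% interval 0.97 to 2.69, adjusted p = 0.22). In both genes the 2 strains' libraries did not overlap.

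Across the family, 6 of the 10 genes had both Az39 libraries above both ipdc libraries, as did 22.5% of all genes, and 0.117% of all genes (22 genes) passed. The 8 members other than JAZ9 and JAZ10 differed by 0.25 to 0.98 on the log2 scale, and 4 members of the 10 had an unadjusted p under 0.05, as did 1743 of the 18867 genes tested. The intervals of these smaller differences varied in width, and most spanned equal levels. JAZ7 at 0.98 had a 95% interval of −0.67 to 2.64, which spans equal levels. JAZ12 at 0.44 (95% interval 0.080 to 0.80, adjusted p = 0.48) and JAZ3 at 0.59 (0.018 to 1.16, adjusted p = 0.53) had intervals above 0. DESeq2 called JAZ10 (adjusted p = 8.79e-04) and JAZ9 (adjusted p = 0.0019) higher with Az39, and 0.967% of all genes in either direction. JAZ6, JAZ7, JAZ8 and JAZ1 turned to lower in Az39 roots when Az39 replicate 2 was left out, at −0.50, −0.27, −0.43 and −0.18, while JAZ9 and JAZ10 stayed higher whichever library was left out.

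JAZ10 also took a different share of the JAZ pool. It supplied 8.80% and 8.39% of the counts of the 10 genes in Az39 roots at 7 d, 2.73% and 2.19% in ipdc roots, and 0.732% and 0.453% in saline roots. The 3 groups did not overlap in this share, which depends on the other members as well as on JAZ10. JAZ12 made up 3.12% and 2.09% in Az39 roots, 2.38% and 3.25% in ipdc roots, and 7.09% and 15.7% in saline roots.

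At 24 h, Az39 roots and saline roots could not be told apart in JAZ transcripts. No member passed the test, and none had an unadjusted p under 0.05. Of all genes, 0% passed with edgeR, while 249 (1.32%) fell under an unadjusted p of 0.05 and 2 (0.00965%), neither a JAZ gene, were called by DESeq2. The median log2 fold change of the 10 was 0.0007, with 5 genes above and 5 below 0. JAZ10 measured 6.89 and 3.54 CPM in Az39 roots and 4.83 and 4.35 CPM in saline roots, a log2 fold change of 0.16 (95% interval −1.14 to 1.45). JAZ8 had the fewest counts of the 10, at 0.411 and 0.544 CPM (4 and 8 counts) in Az39 roots, against 1.59 and 0.807 CPM (31 and 18 counts) in saline roots. Its interval, −3.77 to 1.23 on the log2 scale, was wide and spanned equal levels.

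The ipdc roots at 24 h had slightly higher JAZ levels than saline roots, again without a call. DESeq2 called none either, while it called 6.54% of all genes. Of the 10 genes 9 were above 0 in log2 fold change, with a median of 0.54, and 5 did not overlap, as did 21.7% of all genes, while 2.11% of all genes passed. JAZ7 had the largest fold change, with 8.90 and 5.04 CPM in ipdc roots against 3.29 and 1.704 CPM in saline roots, a log2 fold change of 1.48 ± 0.86 (adjusted p = 0.46). That value was 0.96 without ipdc replicate 1 and 1.84 without ipdc replicate 2. JAZ9 was the member with an unadjusted p under 0.05, a level that 16.3% of all genes reached, at 6.06 and 11.8 CPM in ipdc roots against 3.65 and 4.89 CPM in saline roots, a log2 fold change of 1.07 ± 0.40 (adjusted p = 0.22). The JAZ9 value was 1.42 without ipdc replicate 1 and 0.50 without ipdc replicate 2, and no member passed in either case. The seed storage and photosynthesis transcripts of these 2 libraries move with this comparison, and their part in it was not tested.

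Set directly against ipdc roots at 24 h, Az39 roots had lower mean levels of 9 of the 10 genes, with a median log2 difference of −0.60 and no call by edgeR or DESeq2. Of all genes, 0.959% passed in edgeR and 7.11% in DESeq2. An unadjusted p under 0.05 was found for 2 of the 10 members and for 18.6% of all genes, so the members' count was near the background. The libraries of 6 members did not overlap, Az39 being lower, as in 23.9% of all genes. JAZ8 differed most, at 0.411 and 0.544 CPM in Az39 roots and 2.46 and 3.36 CPM in ipdc roots, a log2 difference of −2.56 ± 1.07 (adjusted p = 0.24). JAZ7 followed, at 2.16 and 1.29 CPM in Az39 roots and 8.90 and 5.04 CPM in ipdc roots, a log2 difference of −2.04 ± 0.95 (adjusted p = 0.29). Both are low-count genes here, and leaving out each library in turn gave −2.80 to −2.31 for JAZ8 and −2.42 to −1.54 for JAZ7, with no call. Without ipdc replicate 1 the differences were −2.72 for JAZ8 and −1.54 for JAZ7, and without ipdc replicate 2 they were −2.31 for JAZ8 and −2.40 for JAZ7.

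The level at 7 d was tested directly against that at 24 h in saline roots only, and some members differed there. JAZ1 was higher at 7 d, at 586 and 233 CPM, than at 24 h, at 118 and 55.8 CPM, a log2 fold change of 2.24 ± 0.59 (adjusted p = 0.032). JAZ12 was also higher at 7 d, at 67.6 and 66.7 CPM, than at 24 h, at 39.6 and 47.5 CPM, a log2 fold change of 0.62 ± 0.16 (adjusted p = 0.031). These 2 of the 10 passed as higher, as did 8.02% of all genes. The fold change was above 0 in 9 of the 10. An unadjusted p under 0.05 was found for 6 of the 10 and for 6360 of the 18867 genes tested. JAZ7 (log2 fold change 2.04), JAZ6 (1.76), JAZ5 (1.72) and JAZ8 (1.72) had larger values than JAZ12 but did not pass. Each of these values was lowest without saline 7 d replicate 1. JAZ10 stood at 6.97 and 1.92 CPM at 7 d and at 4.83 and 4.35 CPM at 24 h, a log2 fold change of −0.05 ± 0.56. Seedling age and time after treatment cannot be told apart here. The count was 0 without saline 24 h replicate 1, ipdc 7 d replicate 1 or 2, or saline 7 d replicate 1, and 1 (JAZ12) without saline 24 h replicate 2. It was 3 without either Az39 7 d library, with JAZ6 added, and 3 without saline 7 d replicate 2 (JAZ1, JAZ2 and JAZ5). DESeq2 called 5 members, and 23.2% of all genes in either direction.

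Whether the response to a strain differed between the times was tested as the response at 7 d minus that at 24 h. For Az39 the difference was above 0 in all 10 genes and passed in none, while 0.0424% of all genes (8 genes) passed and 8 of the 10, against 11.8% of all genes, had an unadjusted p under 0.05. The differences on the log2 scale were largest for JAZ8, at 5.75 ± 1.29 (adjusted p = 0.17), and JAZ10, at 5.71 ± 0.82 (adjusted p = 0.058). JAZ7 followed at 4.74 ± 1.25 (adjusted p = 0.22) and JAZ9 at 3.50 ± 0.58 (adjusted p = 0.077). With no filter on low counts JAZ10 passed (adjusted p = 0.043), without saline 7 d replicate 1 it passed with JAZ2 and JAZ8, and DESeq2 called 7 members and 2.04% of all genes. For ipdc no member passed, 0.106% of all genes did, and DESeq2 called JAZ2 and JAZ10 and 3.48% of all genes. An unadjusted p under 0.05 was found for 3 of the 10 members and for 13.9% of all genes. JAZ10 had the largest difference for ipdc, at 3.18 ± 0.80 (adjusted p = 0.14), which was 3.57 without ipdc 24 h replicate 1 and 2.88 without ipdc 24 h replicate 2. No member passed without either of these libraries.

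Levels can be compared between genes once divided by length. In CPM per kilobase of annotated exon, JAZ1 was highest in all 6 groups, at 651 ± 237 in Az39 roots, 546 ± 86 in ipdc roots and 227 ± 139 in saline roots at 7 d (SD, n = 2). In Az39 roots at 7 d JAZ2 was next at 500 ± 107, and its libraries overlapped those of JAZ1. JAZ7, JAZ6, JAZ10, JAZ8 and JAZ12 followed, each overlapping the next in that order, and JAZ5, JAZ9 and JAZ3 made up a lower set whose neighbours also overlapped. At 7 d JAZ10 took place 5 of 10 in Az39 roots (117 ± 42), place 8 in ipdc roots (22.9 ± 9.4) and place 10 in saline roots (2.01 ± 1.61). JAZ12 took place 7 in Az39 roots (69.4 ± 8.3), place 6 in ipdc roots (51.1 ± 2.3) and place 2 in saline roots (62.1 ± 0.6).

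At 24 h JAZ1, JAZ12 and JAZ2 were, in that order, the 3 highest in each group. JAZ1 averaged 48.1 ± 26.5 CPM per kilobase in Az39 roots, 69.6 ± 33.4 in ipdc roots and 48.2 ± 24.5 in saline roots, and overlapped JAZ12 in each group. JAZ8 was last in Az39 roots (0.593 ± 0.117) and saline roots (1.49 ± 0.69), and JAZ10 was last in ipdc roots (2.62 ± 0.83), and these 2 genes overlapped in ipdc and in saline roots. JAZ5, JAZ7, JAZ9 and JAZ10 overlapped their neighbours in Az39 and in saline roots, so that no order among these 4 can be read there.

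Over the 12 libraries most members rose and fell together. Pearson's r on log2 CPM between a member and the mean of the other 9 was 0.91 to 0.99 for 9 genes and 0.73 for JAZ12. The closest pair was JAZ7 and JAZ8 (r = 0.99) and the least alike JAZ10 and JAZ12 (r = 0.60). These points share the contrast between the 2 times and the treatments, and the values are descriptive.

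Outside the family, the 5 genes whose log2 CPM over the 12 libraries was most like the mean of the 10 JAZ genes were GILP (AT5G13190, r = 0.99), MYBR1 (AT5G67300, also named MYB44, r = 0.99), ERD7 (AT2G17840, r = 0.99), AtIPCS1 (AT3G54020, r = 0.99) and AT5G14700 (r = 0.99). All 5 rose in Az39 roots at 7 d, which their choice by likeness to the JAZ genes over these same libraries made likely. GILP, a LITAF-domain protein gene, had 211 and 385 CPM in Az39 roots, 202 and 146 CPM in ipdc roots, and 83.9 and 34.0 CPM in saline roots at 7 d. MYBR1, a MYB transcription factor gene, had 248 and 444 CPM in Az39 roots, 299 and 167 CPM in ipdc roots, and 108 and 73.4 CPM in saline roots. Like the JAZ genes, both had their higher Az39 value in replicate 2 and their higher saline value in replicate 1. This likeness too comes with the way they were chosen.

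Among related genes, the response at 7 d was uneven. AT3G22275, which the annotation used here leaves unnamed and which was followed with the family, rose to 14.98 and 26.1 CPM in Az39 roots, against 0.568 and 0.492 CPM in saline roots, a log2 fold change of 5.26 ± 0.75 (adjusted p = 0.012). JAZ4 had a fold change below 0, with 4.72 and 17.2 CPM in Az39 roots and 27.99 and 29.5 CPM in saline roots, at −1.40 ± 0.54 (adjusted p = 0.15). JAZ11 measured 19.9 and 26.0 CPM in Az39 roots and 21.7 and 20.7 CPM in saline roots, at 0.11 ± 0.18 (adjusted p = 0.74). Of 6 other TIFY-domain genes (PPD1, PPD2, ZIM, ZML1, ZML2 and TIFY8), none passed in edgeR or in DESeq2, none had an unadjusted p under 0.05 in edgeR, and their log2 fold changes ran from −0.20 to 0.35.

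The machinery that acts on JAZ proteins moved little in Az39 roots at 7 d. COI1, the receptor, measured 46.5 and 43.9 CPM in Az39 roots and 61.2 and 59.0 CPM in saline roots, a log2 fold change of −0.41 ± 0.13 (adjusted p = 0.10). None of 5 receptor-complex genes passed, and 2 had an unadjusted p under 0.05, as did 24.3% of all genes. NINJA, the adaptor to TOPLESS, measured 81.4 and 81.7 CPM in Az39 roots and 83.5 and 75.4 CPM in saline roots, at 0.04 ± 0.18 (adjusted p = 0.92). None of 8 co-repressor genes passed, NINJA included, and 1 had an unadjusted p under 0.05. In DESeq2, 1 of the 5 receptor-complex genes was called higher and 1 lower, and 0 of the 8 co-repressor genes were called. DESeq2 called 10.4% of all genes in this comparison, in either direction.

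Transcription factors held by JAZ proteins, or competing with them, gave mixed results. MYC2, the main activator, measured 487 and 516 CPM in Az39 roots and 396 and 170 CPM in saline roots, at 0.83 ± 0.53 (adjusted p = 0.37). Of the 6 genes tested in this list, which also holds the mediator subunit MED25, 1 rose and 1 fell. JAM1, which encodes a relative of MYC2 that counters it, rose to 87.3 and 156 CPM in Az39 roots, against 22.1 and 11.4 CPM in saline roots (log2 fold change 2.87 ± 0.47, adjusted p = 0.017). MYC4 fell to 14.0 and 22.2 CPM in Az39 roots, against 31.9 and 41.0 CPM in saline roots (−1.01 ± 0.24, adjusted p = 0.048). MYC3 and MYC5 were not analysed here.

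Genes of jasmonate synthesis, turnover and output rose in part. In DESeq2, which called 10.4% of all genes there, 7 synthesis, 7 turnover and 3 output genes were called higher and none lower, more than in edgeR. By edgeR, of 14 synthesis genes 2 rose and none fell, with 13 above 0 and a median log2 fold change of 1.89. They were OPR3, the reductase of the pathway, at 305 and 455 CPM in Az39 roots against 63.0 and 29.3 CPM in saline roots (3.04 ± 0.41, adjusted p = 0.010), and AOC1, an allene oxide cyclase, at 14.6 and 12.3 CPM against 0.258 and 0.246 CPM (5.70 ± 0.87, adjusted p = 0.013). AOC1 has close paralogs, among which reads may have been divided. Of 9 turnover genes tested, out of 11 listed, 5 rose and none fell, with a median of 1.53. ILL6, an amidohydrolase that cleaves jasmonoyl-isoleucine, had 43.1 and 66.1 CPM in Az39 roots against 7.80 and 4.38 CPM in saline roots (3.16 ± 0.36, adjusted p = 0.0064). CYP94B1, which oxidises the hormone, had 59.96 and 62.3 CPM in Az39 roots against 24.5 and 17.7 CPM in saline roots (1.53 ± 0.30, adjusted p = 0.029). AT2G38240, unnamed in the annotation used here, had 7.02 and 10.5 CPM in Az39 roots against 0.258 and 0.246 CPM in saline roots (5.08 ± 0.86, adjusted p = 0.019).

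Of 8 output genes tested, out of 10 listed, 2 rose and none fell. TAT3, a tyrosine aminotransferase gene long used as a jasmonate marker, had 83.5 and 113 CPM in Az39 roots against 2.27 and 0.344 CPM in saline roots (6.23 ± 0.73, adjusted p = 0.0065). ANAC055, a NAC transcription factor gene, had 7.31 and 19.7 CPM in Az39 roots against 3.51 and 1.82 CPM in saline roots (2.34 ± 0.51, adjusted p = 0.039). With ipdc at 7 d, 0 genes of these lists passed edgeR's test. An unadjusted p under 0.05 was found for 7 of the 14 synthesis genes, 3 of the 9 turnover genes and 2 of the 8 output genes. Of all genes tested, 10.5% reached that level. In the same comparison 4 synthesis genes, 1 turnover gene and 1 output gene were called higher by DESeq2. It called 1.97% of all genes to which it gave an adjusted p, in either direction.

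**Figure D4:**
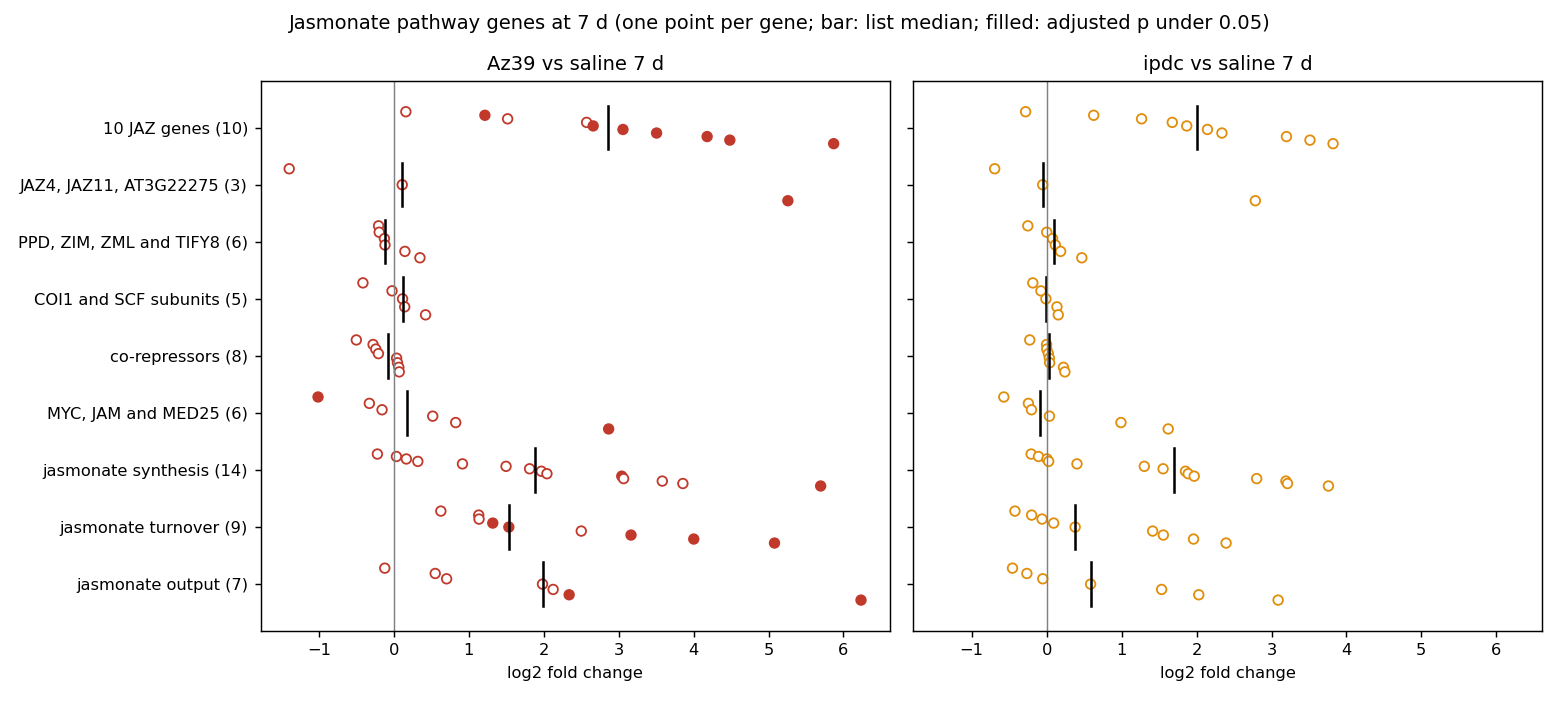
Log2 fold change at 7 d of the 10 JAZ genes and of 8 lists of other genes of the family and the jasmonate pathway, for Az39 versus saline and ipdc versus saline roots, with 1 point per gene, a bar at each list's median and filled points where the adjusted p was under 0.05. CORI3, an output gene with no count in either saline library at 7 d, is not drawn. The output gene TAT3 lies farthest right in the Az39 panel, at 6.23, followed by JAZ10 at 5.87 and the synthesis gene AOC1 at 5.70, the receptor and co-repressor genes stay between −0.50 and 0.42, and no point is filled in the ipdc panel.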

How the data were processed

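RNA from whole roots was sequenced in 12 libraries, 2 in each of 6 groups, as 150 bp single-end reads. The authors deposited a raw read count for each gene. The submitters' processing notes name HISAT2 2.2.1, featureCounts and the TAIR10 build. How featureCounts treated strand and multiply matching reads is not given in the sources used here. Close paralogs and overlapping genes may share reads. The kit named in the labels does not mark strand. Totals of 9665704 to 21541793 counts set the depth of each library.

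The count model was fitted with edgeR 4.0.16 (R 4.3.3). filterByExpr (minimum count 10, minimum total 15, proportion 0.7) kept 18867 of 21200 genes. Libraries were scaled by TMM, 1 model with 6 group means was fitted to all 12 libraries (6 residual degrees of freedom), and 9 comparisons were tested with the two-sided quasi-likelihood F test. A gene passed at a Benjamini-Hochberg adjusted p under 0.05 over all genes tested within a comparison. Fold changes used a prior count of 0.125. Each SE was obtained as |log2 fold change| / √F, and intervals are 95% intervals from that SE. The procedure was tested on simulated data. Correlations used log2 CPM with a prior count of 2, and likeness was searched among tested genes with a mean log2 CPM of at least 1. Exon lengths, gene starts, gene names and sequences came from RefSeq's TAIR10.1 annotation and were not converted to or from the authors' build.

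The 10 members and the pathway and marker lists were chosen with earlier results of these data known, so counts over them are descriptive. Named were all 10 members, JAZ4, JAZ11, AT3G22275, COI1, NINJA, MYC2 and MYC4. Up to 3 passing genes per pathway list, with the smallest adjusted p for Az39 versus saline at 7 d, were named too. So were the 5 genes most like the members. Fold changes of all 10 members are given for each strain versus saline at 7 d. In the other comparisons they are given for some members, often those that differed most. WOL was named after its value was seen. Alternatives were RLE scaling, no filter on low counts, DESeq2 1.42.0, a fit to the 6 libraries of the same time, a fit without both ipdc 24 h libraries, the replicate mark as a block, and leaving out each library in turn.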

Additional observations from a re-analysis of the deposited data

How the results depend on the processing

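RLE scaling changed no direction or call of a member and shifted the all-gene median by at most 0.015 (log2). The labels do not say whether same-marked libraries share a batch, and their deviations correlated from −0.244 to 0.136. With 2 libraries per group, these values cannot show whether the marks pair the libraries. With the replicate block, the members called were 3 for Az39 versus saline at 7 d and 0 for saline 7 d versus 24 h. Over all genes the block gave 37 and 6 calls at 24 h for ipdc versus saline and Az39 versus ipdc. It gave 326, 0 and 4 at 7 d for Az39 versus saline, ipdc versus saline and Az39 versus ipdc. It gave 299 for the saline times and 0 for each difference between times. With DESeq2 the members called at 7 d were 8 for Az39 versus saline, 7 for ipdc versus saline and 2 for Az39 versus ipdc. They were 5 for the saline times, and 7 (Az39) and 2 (ipdc) for the differences between times. DESeq2's calls over all genes were 2, 1355 and 1388 at 24 h (Az39 versus saline, ipdc versus saline, Az39 versus ipdc), 1980, 377 and 185 at 7 d in the same order, 4345 for the saline times, and 382 (Az39) and 693 (ipdc) for the differences between times. With no filter, ipdc versus saline at 7 d gave 5 genes and the Az39 difference between times 1 member. Fits to 1 time gave 5 members for Az39 versus saline at 7 d, without JAZ6 and JAZ7, and 0 genes for ipdc versus saline at either time and 0 for Az39 versus ipdc at 24 h. Without both ipdc 24 h libraries, Az39 versus saline at 7 d gave 1204 genes and the Az39 difference between times 18. The cause of these shifts was not tested.

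Leaving out each library in turn, with the remaining library of that group assumed to vary like the other groups, gave 1 to 8 members called for Az39 versus saline at 7 d, 0 to 1 for ipdc versus saline at 7 d, 0 to 3 for the saline times and 0 to 3 for the Az39 difference between times. Over all genes it gave 0 to 1316 (ipdc versus saline) and 0 to 1331 (Az39 versus ipdc) at 24 h. At 7 d it gave 7 to 1132 (Az39 versus saline), 0 to 8 (ipdc versus saline) and 0 to 26 (Az39 versus ipdc). It gave 26 to 3903 for the saline times, and 0 to 40 (Az39) and 0 to 819 (ipdc) for the differences between times. No called fold change of a member changed sign. Uncalled log2 fold changes that did, for Az39 versus saline at 24 h, ranged from −0.72 to 0.63 (JAZ1), −0.13 to 0.26 (JAZ2), −0.039 to 0.54 (JAZ3), −0.87 to 0.37 (JAZ5), −0.20 to 0.10 (JAZ6), −0.19 to 0.21 (JAZ9), −0.37 to 0.58 (JAZ10) and −0.017 to 0.22 (JAZ12). For ipdc versus saline at 24 h they were −0.068 to 1.17 (JAZ1), −0.080 to 0.63 (JAZ10) and −0.013 to 0.25 (JAZ12). For Az39 versus ipdc they were −1.25 to 0.060 (JAZ1), −0.71 to 0.25 (JAZ10) and −0.10 to 0.12 (JAZ12) at 24 h, and −0.18 to 0.58 (JAZ1), −0.50 to 1.14 (JAZ6), −0.27 to 1.64 (JAZ7) and −0.43 to 1.28 (JAZ8) at 7 d. For the saline times they were −0.069 to 2.502 (JAZ8) and −1.25 to 0.60 (JAZ10), and for the Az39 difference between times −0.11 to 0.18 (JAZ12). JAZ7 and JAZ8 had few counts at 24 h with 2 libraries per group, so the absence of a call there does not show equal levels.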
